A study of Mus musculus with 4 samples.

Results

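The peaks described here are the long coding m6A peaks of the mouse cortex that were found in both conditions of the study. They were chosen from the deposited table of peaks as the rows called in sham cortex that the authors classed as cds (coding sequence), that reached over more than 5000 bases of the genome from first to last base, introns included, and that shared at least 1 base on the same strand with a peak called in injured cortex. The rule found 1079 peaks in 954 genes. They made up 6.01% of the 17943 sham-set peaks and 17.7% of the 6094 coding sham-set peaks that overlapped an rmTBI-set peak. The whole table, sham and rmTBI sets combined, listed 33977 peaks from 10415 genes. Both the peak calls and the spans that chose them are readouts of these libraries.

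The series compared m6A in the cerebral cortex of mice after a sham procedure with that after repetitive mild traumatic brain injury (rmTBI), by sequencing the RNA fragments bound by an anti-m6A antibody (MeRIP-seq). There were 2 sham and 2 rmTBI libraries, all made from total RNA taken up in TRIzol and all labelled with the same antibody. Each group has a library numbered 0 and one numbered 1 in the labels, which leave unsaid what the numbers mean and whether separate mice gave the libraries. P-values therefore reflect library-to-library spread alone, possibly technical, and that spread includes any difference between numbers 0 and 1. The strain, age and sex of the mice, the injury protocol and the delay after injury are details not given by the sources used, and the METTL3 inhibitor treatment named in the series description was not analysed here. The deposited table held 14437317 and 26356562 reads over its peaks in sham libraries 0 and 1, and 13753600 and 26888072 in rmTBI libraries 0 and 1. All 14 listed cortical excitatory neuron markers had a peak, as did 13 of 15 thalamic and all 12 striatal markers.

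N6-methyladenosine (m6A) is a methyl mark placed on adenosines of messenger RNA by a complex around the enzyme Mettl3 with its partner Mettl14, mostly within a short consensus that often reads GGACU. In messenger RNA it is densest around stop codons and in long internal exons, and it is sparse close to splice junctions, where proteins deposited during splicing shield the RNA. A mark in mature RNA lies in exons, so a peak drawn over many kilobases of genome joins exons across the introns between them.

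Other annotated features that such a span holds can be shown with sequence. Of the miRNA hairpins in the RefSeq table of GRCm38.p6, 4 lay wholly inside a long coding peak, all on the strand of the peak. Mir128-1 sat in a 17625-base peak of R3hdm1 on chromosome 1, Mir7021 in a 34389-base peak of Prdm2 on chromosome 4, Gm51277 in a 10309-base peak of Napepld on chromosome 5 and Mir6540 in a 48670-base peak of Gap43 on chromosome 16. Their mature sequences, from RefSeq, are shown 5′ to 3′ with the seed (bases 2 to 8) in capitals, as annotated features inside the span. Whether each hairpin lies in an intron, a UTR or a coding exon was not checked. No seed was shared between hairpins.
mmu-miR-128-1-5p (Mir128-1, in R3hdm1): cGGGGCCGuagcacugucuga
mmu-miR-128-3p (Mir128-1, in R3hdm1): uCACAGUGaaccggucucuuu
mmu-miR-7021-3p (Mir7021, in Prdm2): uCUCUGUGcuucugcuccuuag
mmu-miR-7021-5p (Mir7021, in Prdm2): aUAGGAGUugauuacagagcaa
mmu-miR-12197-3p (Gm51277, in Napepld): gCGGGGCUggggacaucg
mmu-miR-6540-3p (Mir6540, in Gap43): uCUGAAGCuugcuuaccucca

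The R3hdm1 peak with Mir128-1, the precursor of a miRNA abundant in neurons, gave 133 and 52.6 CPM (reads scaled to library size by edgeR) in sham libraries 0 and 1 and 168 and 59.0 CPM in rmTBI libraries 0 and 1. Gap43, a growth cone protein, gave 373 and 406 CPM against 428 and 445 CPM over its span. The R3hdm1 values differed more between library numbers than between sham and rmTBI, and those of Gap43 did not overlap between the groups. Neither peak passed the test of rmTBI against sham described later, with log2 folds of 0.29 (SE 0.55) and 0.16 (SE 0.20).

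Annotated gene starts also fell inside the spans. For the RefSeq windows of 300 bases that run from 250 before to 50 after a start, 26 windows of 22 genes lay inside a peak of their own gene on its strand, and 76 windows of 66 other genes lay inside 59 of the peaks, 58 of these windows on the strand opposite to the peak. GGACT, the DNA form of the common m6A consensus, occurred on the gene strand in 7 of the 26 own-gene windows (26.9%), beside 26.1% of all 32851 windows of this length, and on the other strand in 7 of the 26, beside 26.0%. A match is only a match of letters. The windows of Bdnf (chr2:109722671-109722970, plus strand), which encodes a neurotrophin, of Zc3h14 (chr12:98770772-98771071, plus strand), which encodes a poly(A)-binding protein, and of Phactr1 (chr13:43122589-43122888, plus strand), an actin and phosphatase regulator, are printed from RefSeq in GRCm38.p6 with GGACT in capitals, since each is an internal start that the peak runs across.
Bdnf: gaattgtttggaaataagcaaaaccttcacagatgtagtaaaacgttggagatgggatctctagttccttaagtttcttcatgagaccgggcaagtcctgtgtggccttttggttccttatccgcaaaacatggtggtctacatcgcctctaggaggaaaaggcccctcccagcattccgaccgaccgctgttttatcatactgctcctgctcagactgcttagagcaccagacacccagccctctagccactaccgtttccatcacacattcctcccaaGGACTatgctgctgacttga
Zc3h14: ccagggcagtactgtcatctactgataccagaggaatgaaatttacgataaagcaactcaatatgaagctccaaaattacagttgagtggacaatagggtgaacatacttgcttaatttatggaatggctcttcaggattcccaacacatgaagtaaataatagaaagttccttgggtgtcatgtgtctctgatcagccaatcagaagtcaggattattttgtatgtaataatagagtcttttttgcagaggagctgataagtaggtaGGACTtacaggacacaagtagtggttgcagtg
Phactr1: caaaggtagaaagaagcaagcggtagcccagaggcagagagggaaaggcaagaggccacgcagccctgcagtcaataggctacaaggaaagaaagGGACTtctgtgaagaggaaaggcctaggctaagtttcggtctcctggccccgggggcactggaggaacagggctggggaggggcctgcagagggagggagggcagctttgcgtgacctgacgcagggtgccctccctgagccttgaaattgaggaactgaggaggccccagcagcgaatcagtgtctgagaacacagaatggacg

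The 3 peaks over these starts differed in level. Bdnf gave 7.70 and 6.88 CPM in sham and 10.2 and 9.43 CPM in rmTBI, Zc3h14 gave 27.8 and 17.5 CPM against 28.5 and 15.4 CPM, and Phactr1 gave 424 and 237 CPM against 468 and 259 CPM. Only for Bdnf were both rmTBI libraries above both sham libraries, and its log2 fold of 0.43 (SE 0.26) did not pass (edgeR quasi-likelihood test, Benjamini-Hochberg adjusted p = 1.00).

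Spans ran from 5002 to 972024 bases, with quartiles of 7120, 10493 and 20248 bases. Of the 1079 peaks, 567 spanned over 10000 bases, 273 over 20000 and 96 over 50000. The 6 longest lay in Gpc5 (972024 bases), a glypican of the cell surface; Ccser1 (559697); Fgf14 (484027), which encodes a regulator of voltage-gated sodium channels; Kcnb2 (396816), a potassium channel subunit; Rsrc1 (355238), a splicing factor; and Pcdh9 (326111), a protocadherin. At the threshold, the shortest peak inside it was in Usp16 (5002 bases, chromosome 16, 87464813 to 87469814; log2 fold 0.10) and the longest shared coding peak outside it was in L3mbtl3 (4999 bases, chromosome 10, 26339218 to 26344216; log2 fold 0.11).

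Most genes held 1 such peak (848 of 954), 90 held 2, 13 held 3 and 3 held 4. The 3 genes with 4 peaks were Bptf, a subunit of the NURF chromatin remodeller, Fmn1, an actin nucleator, and Pclo, a scaffold of the presynaptic active zone. Peaks lay on both strands alike (567 plus, 512 minus). RefSeq spans were matched for 1071 peaks, of which 1040 lay wholly inside their gene, and at the median the peak covered 17.7% of its gene; the median gene was 76320 bases long. In 157 cases the peak covered at least 50% of the gene, as in Calm2 (95.6%), which encodes calmodulin, and Cplx1 (95.6%), which encodes the synaptic vesicle fusion regulator complexin. Of 863 peaks whose gene has a strand in the RefSeq tables used here, 6 carried the opposite strand: 2 in Usp29 and 1 each in Scn9a, Pclo, Ankrd11 and Msl1.

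Of 1526 coding sham-set peaks spanning over 5000 bases, 70.7% overlapped an rmTBI-set peak and so met the rule, and what follows describes how. A single rmTBI-set peak overlapped 1005 of the sham-set peaks, and 2, 3 or 4 rmTBI-set peaks overlapped 68, 5 and 1. The best-overlapping rmTBI peak covered a median of 99.5% of the sham span. Cover was at least 50% for 870 peaks (80.6%), at least 90% for 727 (67.4%) and at least 99% for 620 (57.5%), while 107 were covered by under 10%. The rmTBI peak was in the same gene for 1075 and of class cds for 1034, with the remainder classed as utr3 (29), utr5 (14) or NP_exon (2), a class left undefined in the labels and headers. For Gpc5 the rmTBI peak covered 971994 of 972024 bases.

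Exactly 1 end was shared between the paired peaks in 575 cases, 287 at the start and 288 at the end, and both ends were never shared. Among the other offsets, 30 bases was common, with 245 starts and 272 ends displaced by that distance from sham to rmTBI. No row of the whole table shares both coordinates and strand with another row, so a peak with identical borders in both sets could not be met here.

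The overlap was small for some of the longest peaks, and the reads over the paired peaks then differed widely. The Fgf14 peak met only a 301-base rmTBI peak. Reads over the Fgf14 span came to 4143 and 2423 CPM in sham and 4233 and 2496 CPM in rmTBI, and those over the 301 bases to 25.6 and 29.0 CPM and to 24.6 and 31.7 CPM. Ccser1 met a 480-base rmTBI peak, with 905 and 535 CPM in sham and 1036 and 596 CPM in rmTBI over its span, and 4.42 and 7.43 CPM against 3.49 and 6.76 CPM over the short peak. In both genes the library numbered 0 was the higher one over the long span and the lower one over the short peak. Ehbp1 and Aff1, with spans of 36788 and 26730 bases, were in the set through an overlap of 2 bases each.

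**Figure D1:**
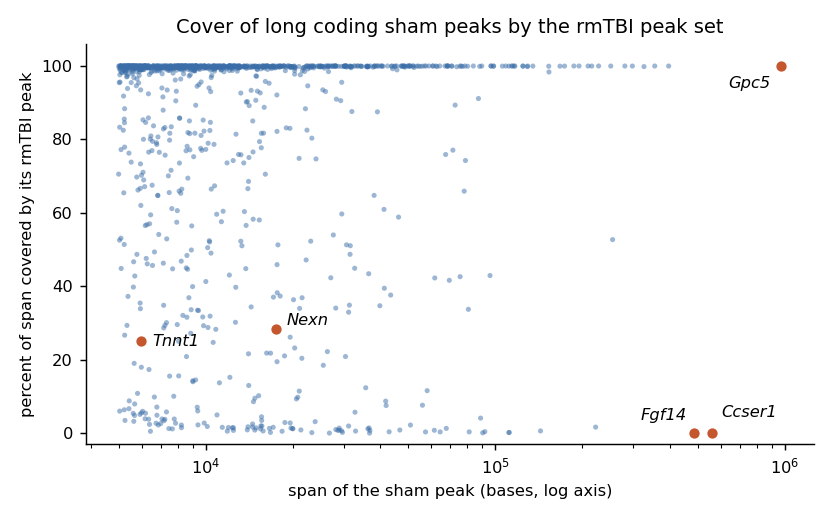
Percent of each long coding sham peak that its best-overlapping rmTBI peak covers (vertical axis) against the span of the sham peak in bases (horizontal axis, log scale), 1 point per peak for 1079 peaks, with 5 genes in orange. Most points lie along the top, at a median of 99.5%, and 107 lie under 10%, among them Fgf14 and Ccser1.

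Reads were then followed inside the spans. Peaks of the table that lay wholly inside a long coding peak numbered 580, in 511 of the long peaks. In none of the 580 pairs did the inner peak hold more reads than the outer one in any library. Inner peaks of the same gene and strand (527 pairs) held a median of 94.7% of the reads of the outer peak in sham library 1.

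The share depended on how long the inner peak was. The 347 inner peaks of over 5000 bases held a median of 97.2% and 98.2% of the reads in sham libraries 0 and 1, over 99.2% of the span. The 97 of over 1000 and up to 5000 bases held 71.4% and 76.3%, over 31.7% of the span. The 83 inner peaks of at most 1000 bases covered a median of 1.66% of the span and held 26.0% and 46.7% of its reads in sham libraries 0 and 1, and 30.8% and 43.7% in rmTBI libraries 0 and 1. These short stretches, in 75 of the long peaks, are in the table because they were themselves called as peaks, so their share of reads is a description of those 75.

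Reads of peaks on the other strand or of another gene were also found within the spans. On the opposite strand lay 42 inner peaks, in 21 long peaks, and a 788-base peak of Chd3, a chromatin remodeller, held 98.9% of the reads of the 5408-base peak around it that carries the other strand. The Ankrd11 peak of 9333 bases, one of those opposite to its RefSeq strand, had 13057 and 26769 reads in sham and 13668 and 30253 in rmTBI, and a 3359-base peak on the strand of the gene held 89.2% of them in sham library 1. Peaks of another gene numbered 24, in 18 long peaks. Zfp775 held 95.7% of the reads of the Gm45021 peak, Ube2v1 83.6% of those of Gm20431, and Gm26586, on the opposite strand, 60.3% of those of Tpm4, all in sham library 1. A level over such a span is therefore uncertain as a level of the gene it is named for. Where several separate inner peaks could be added up (32 long peaks), their sum was a median of 93.7% of the outer count and exceeded it in 9, up to 154% in Kars.

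**Figure D2:**
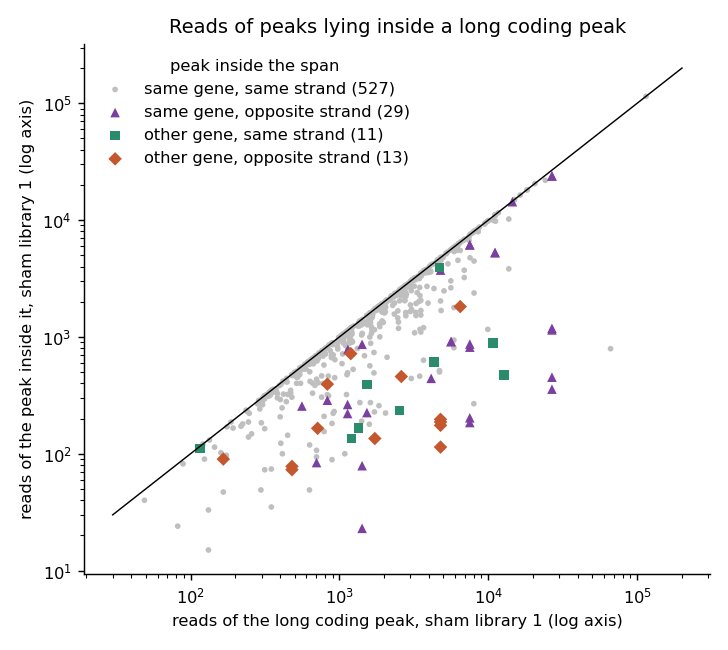
Reads in sham library 1 of each peak lying inside a long coding peak (vertical axis, log scale) against the reads of the long peak (horizontal axis, log scale), for 580 pairs marked by gene and strand, with the line of equal counts. No pair lies above the line, opposite-strand pairs included.

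Median counts were higher and median reads per base lower in the long classes than in peaks under 1000 bases. The long coding peaks had median counts of 848 and 1236 reads in sham libraries 0 and 1 and 819 and 1269 in rmTBI libraries 0 and 1, beside 116 and 246, and 107 and 251, for the 3807 shared coding peaks under 1000 bases. Per 1000 bases of span, sham library 1 had a median of 639.7 reads in peaks of up to 300 bases, 840.3 in those of over 300 and up to 1000, 149.5 in those up to 10000 of the long ones and 34.2 in those over 50000. Because a span includes introns, this is a density over genome and not over exons. On the same per-length scale Calm2 stood highest among the named genes, at 338 CPM per 1000 bases, followed by Ankrd11 at 108 and Chd3 at 100.5, while Gpc5 had 0.75 and Bdnf 0.61.

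The ratio between the numbered libraries also differed with span, in both conditions. Among the long coding peaks the median log2 ratio of library 1 to library 0 was -0.34 in sham and -0.40 in rmTBI, beside 0.02 and 0.05 over all tested peaks, and 874 of the 1079 lay below those all-peak medians in both groups. In sham the median was 0.23 for peaks of over 300 and up to 1000 bases, -0.26 for long peaks up to 10000, -0.53 for those over 20000 and up to 50000, and -0.72 for those over 50000, and in rmTBI the corresponding values were 0.21, -0.29, -0.56 and -0.72. Across the 1079 peaks Spearman's rho between span and this ratio was -0.38 in sham and -0.36 in rmTBI, as a description over peaks that share the same libraries. Pcdh9 shows the size of it, with 4191 CPM in sham library 0 and 2034 CPM in sham library 1, and 3975 and 1995 CPM in rmTBI. Whether the numbers mark different kinds of library, such as input RNA and RNA bound by the antibody, is not settled by the labels. If they do, each mean, SE and CPM comparison over 2 libraries mixes the kinds, so the leading genes below are also given number by number.

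**Figure D3:**
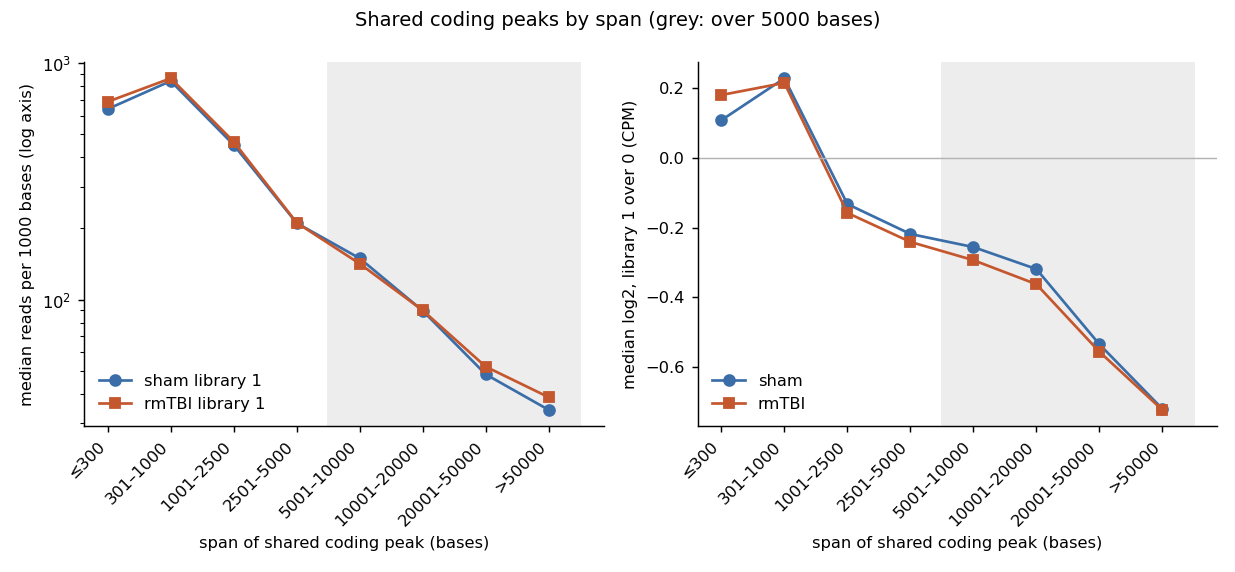
Shared coding peaks by span in 8 classes (grey: the long coding peaks), for sham (blue) and rmTBI (orange). Left, the median reads per 1000 bases in library 1 (log scale) go from 840.3 to 34.2 in sham between the class of over 300 and up to 1000 bases and that over 50000; right, the median log2 ratio of library 1 to library 0 goes from 0.23 to -0.72.

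The design asks where the m6A signal of cortical RNA differs after rmTBI; the series description names lncRNA, and the peaks here are those in coding transcripts. Counts at 4 of the 1079 long coding peaks, in Tnnt1, Tcf7l2, Nexn and Ntng1, fell in rmTBI (edgeR quasi-likelihood test, Benjamini-Hochberg adjusted p under 0.05 over 33415 tested peaks), and none was called higher with group alone in the model. This is 0.371% of them, beside 0.0868% of all tested peaks called, all lower; for higher peaks the share over all tested peaks was 0.0%. The rule required a peak in both conditions, which bears on the same contrast, so nothing is read from the difference of these shares. The labels give the antibody for every library, and on that reading methylation and abundance of a transcript cannot be told apart here. Nor can fewer cells of a type or region in the sampled tissue, for whatever reason, and less RNA per cell. The make-up of the sampled tissue was not tested.

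Tnnt1, the slow skeletal muscle troponin T that is also used as a marker of thalamic neurons, had a peak of 5983 bases (chromosome 7, 4508527 to 4514509). Its level was 89.8 and 90.3 CPM in sham libraries 0 and 1 and 6.52 and 7.63 CPM in rmTBI libraries 0 and 1. The sham libraries lay within 1 CPM of each other and far above both rmTBI libraries. The log2 fold was -3.66 (SE 0.27, adjusted p = 0.0248, edgeR), with -3.78 within number 0 and -3.57 within number 1. The gene had 1 other peak, the rmTBI-set peak of 1506 bases inside the span, with a log2 fold of -3.75 (adjusted p = 0.0248, edgeR).

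Tcf7l2, an HMG-box factor through which Wnt signals act and a marker of thalamic neurons, had a peak of 8964 bases (chromosome 19, 55910650 to 55919613). It held 2404 and 3544 reads in sham and 262 and 432 in rmTBI, or 171 and 130 CPM against 19.9 and 15.5 CPM. The groups did not overlap. The log2 fold was -3.09 (SE 0.29, adjusted p = 0.0437, edgeR), with -3.11 and -3.06 within numbers 0 and 1. All 6 peaks of the gene in the table had lower values in rmTBI, and of the 4 outside this span 2 were called, with log2 folds outside it from -3.17 to -2.30.

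Ntng1, the membrane-anchored axon guidance protein netrin-G1, had a peak of 7709 bases (chromosome 3, 110135315 to 110143023) with 2131 and 4500 reads in sham and 478 and 1092 in rmTBI. In scaled units this was 152 and 165 CPM against 36.2 and 39.3 CPM, again without overlap of the groups. The log2 fold was -2.07 (SE 0.24, adjusted p = 0.0437, edgeR) and -2.07 within each number. The 9 peaks of Ntng1 outside the span, in both UTRs and in coding sequence, had log2 folds from -2.30 to -1.72 and none was called (edgeR adjusted p from 0.0683 to 0.285).

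Nexn, the actin-binding protein nexilin, had the longest of the called peaks (17506 bases, chromosome 3, 152237790 to 152255295), which covered 59.6% of its gene and met 4 rmTBI-set peaks. The sham libraries gave 191 and 215 CPM and the rmTBI libraries 48.3 and 40.4 CPM. Both rmTBI values lay below both sham values, with a log2 fold of -2.20 (SE 0.24, adjusted p = 0.0437, edgeR), -1.99 within number 0 and -2.41 within number 1. The 4 rmTBI-set peaks that overlap the span had log2 folds from -2.43 to -2.15. A 301-base peak in the 3' UTR of the same gene, outside the span, held 67 and 89 reads in sham and 63 and 86 in rmTBI, a log2 fold of -0.03 that was not called; the difference between the 2 peaks was not tested.

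**Figure D4:**
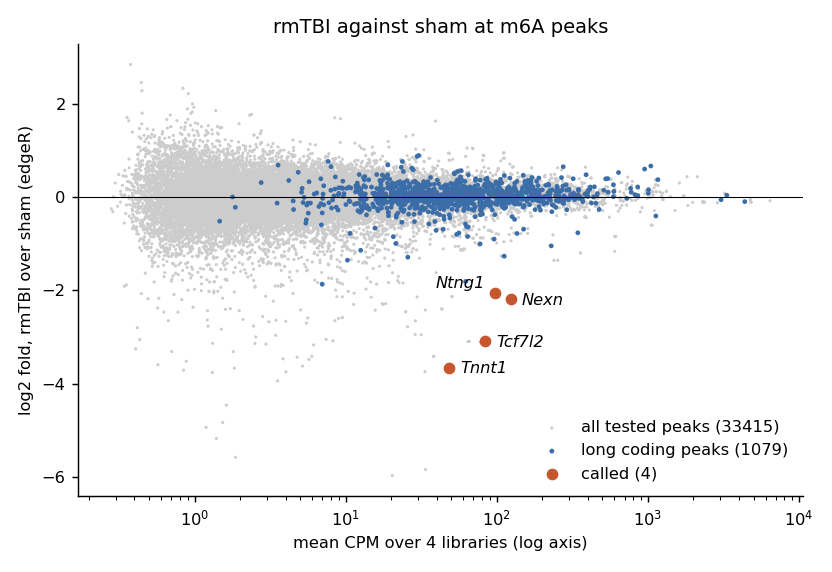
Log2 fold of rmTBI over sham from edgeR (vertical axis) against the mean CPM over 4 libraries (horizontal axis, log scale) for 33415 tested peaks (grey) and the 1079 long coding peaks (blue). The 4 called peaks (orange), Ntng1, Nexn, Tcf7l2 and Tnnt1, lie between -2.07 and -3.66.

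With counts scaled by library totals instead of TMM, 1 of the 4 peaks was called in edgeR, beside 2 over all peaks. With a filter of at least 10 counts in every library none was, beside 0 over all peaks (edgeR adjusted p of the 4 from 0.0509 to 0.0867). With that filter 29 long coding peaks had an unadjusted p under 0.05 (edgeR). DESeq2 called 8, beside 138 over all peaks: the 4 and those of Amotl1, Vangl1, Plcb4 and Dach1. With the library number as a block edgeR called 269, 108 lower and 161 higher, beside 3553 over all peaks.

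Without adjustment, 28 peaks of 26 genes had p under 0.05 in the edgeR quasi-likelihood test (2.59%, beside 2.84% of all tested peaks). Of the 1079, 23 were lower in rmTBI, beside 704 of all 33415 tested peaks (2.11%), and 5 were higher, beside 244 (0.73%). Peaks past this unadjusted threshold did not pass adjustment, apart from the 4 called, and are given as values. Over all 1079 the median log2 fold was 0.02, as over all tested peaks (0.02), with 604 above 0 and 475 below. It was 0.05 within number 0 and -0.00 within number 1. The central 90% lay between -0.35 and 0.36, beside -0.62 to 0.54 over all tested peaks. Nothing is read from this either, since the rule asks for a peak in both conditions and long peaks hold more reads than most.

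Genes of several roles were among the lowest after the called peaks. Vangl1, a planar cell polarity membrane protein, had 11.7 and 10.3 CPM in sham and 2.81 and 3.17 CPM in rmTBI (log2 fold -1.87, SE 0.27, edgeR adjusted p = 0.101). Amotl1, an angiomotin family scaffold, had 117 and 77.6 CPM against 33.7 and 21.8 CPM (log2 fold -1.81, SE 0.33). At Amotl1 the library numbered 0 was the higher one in each group. Plcb4, a phospholipase C that acts downstream of G protein-coupled receptors, had 175 and 142 CPM against 72.0 and 59.2 CPM (log2 fold -1.27, SE 0.25, edgeR adjusted p = 0.299), and its second long peak had a log2 fold of -0.85. Dach1, a transcriptional cofactor, had 37.7 and 35.5 CPM against 16.4 and 13.5 CPM (log2 fold -1.29, SE 0.26). None of these 4 genes passed the edgeR threshold. Both rmTBI values lay below both sham values in each, but the genes were named for low folds or after their values were seen. How often the groups separate in this way over all tested peaks was not computed. Nothing is therefore read from such separation, at these or at other named genes.

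Peaks with higher values in rmTBI and an unadjusted p under 0.05 had smaller folds. Mef2c, a transcription factor of activity-dependent neuronal genes, had 501 and 548 CPM in sham and 748 and 758 CPM in rmTBI (log2 fold 0.52, SE 0.19). Ipcef1 had 22.4 and 19.6 CPM against 45.5 and 31.3 CPM (log2 fold 0.87, SE 0.28). Both rmTBI values exceeded both sham values in each. Myo16, an unconventional myosin, and Evc2, a protein of the primary cilium, each had a log2 fold of 0.76 (SE 0.28 and 0.27). The adjusted p of these 4 was 1.00 (edgeR).

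**Figure D5:**
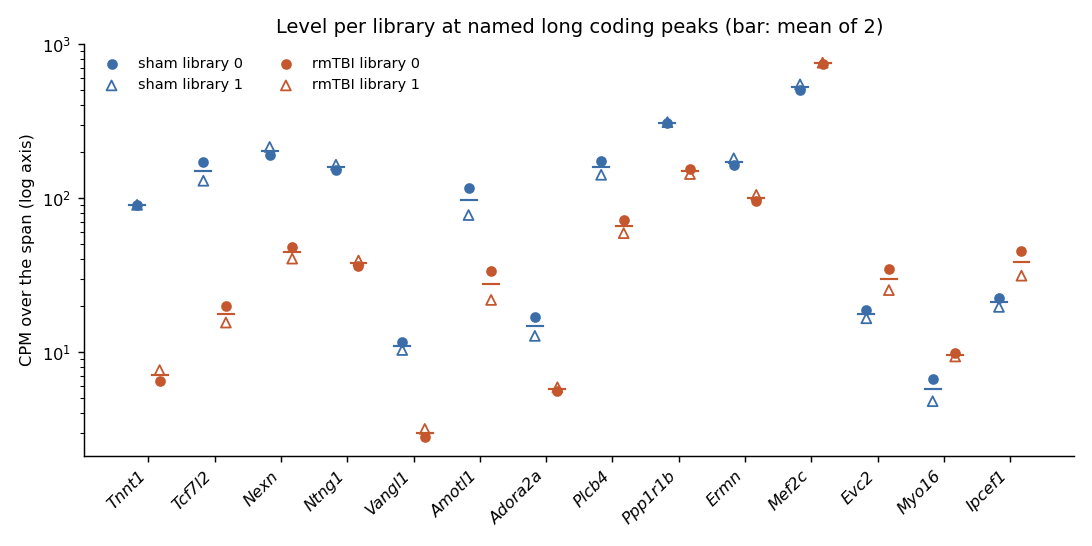
CPM over the span (vertical axis, log scale) in each library for 14 named long coding peaks, sham in blue and rmTBI in orange, circles for library 0 and triangles for library 1, with the mean of 2 as a bar. For Tnnt1 the sham libraries lie at 89.8 and 90.3 CPM and the rmTBI libraries at 6.52 and 7.63 CPM; for Mef2c the order is the other way, at 501 and 548 against 748 and 758 CPM.

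Cell type and region markers were among these genes. Of the thalamic markers 3 genes had a long coding peak, Ntng1, Tcf7l2 and Tnnt1, and all 3 were called lower. Over the whole thalamic list, 13 of 15 genes had a peak in the table, and the gene median was below 0 in 13. Of 59 tested peaks, 21 in 8 genes were called lower, beside 29 of all 33415 (0.0868%). The summed level of its sham-set peaks was 1234 and 1442 CPM in sham and 246.6 and 282.7 CPM in rmTBI. The list was chosen with earlier results of these data known, so these counts are only a description. Lef1 and Prkcd had no peak. The part of this in the called peaks was not tested. Nexn is on none of the 11 marker lists.

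Striatal markers with a long coding peak were Adora2a, a G protein-coupled adenosine receptor, and Ppp1r1b, which encodes the dopamine signalling protein DARPP-32. Adora2a had 16.9 and 12.7 CPM in sham and 5.61 and 5.90 CPM in rmTBI (log2 fold -1.36, SE 0.27). Ppp1r1b had 307 and 311 CPM against 155 and 143 CPM (log2 fold -1.05, SE 0.21), and the edgeR adjusted p was 0.331 for both. Neither was called, and the groups did not overlap in either gene. The summed level of the sham-set peaks of the 12 striatal genes was 1535 and 1542 CPM in sham and 856.1 and 837.2 CPM in rmTBI. Of 43 tested peaks in either set, 0 were called (edgeR).

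Cortical excitatory neuron markers with long coding peaks included Mef2c and Rasgrf2, a Ras activator with 47.2 and 39.9 CPM in sham and 66.3 and 56.4 CPM in rmTBI (log2 fold 0.49, SE 0.25), and no long coding peak of the list was called. Summed over its sham-set peaks, the list gave 2478 and 2325 CPM in sham and 3359 and 2994 CPM in rmTBI. Oligodendrocyte markers were Ermn, a cytoskeletal protein of myelinating cells, at 163 and 181 CPM in sham and 95.1 and 105 CPM in rmTBI (log2 fold -0.78, SE 0.23), and St18 (log2 fold -0.56, SE 0.32). Their list summed to 1171 and 1105 CPM against 763.8 and 683.2 CPM. The thalamic, striatal and oligodendrocyte sums were thus lower, and the cortical sum higher, in each rmTBI library than in either sham library. The choroid plexus and ependyma list was also lower, at 51.0 and 56.4 CPM in sham and 14.1 and 15.6 CPM in rmTBI. The sums of the interneuron list (202.1 and 268.5 CPM against 276.5 and 375.4 CPM), the oligodendrocyte progenitor list (383.6 and 370.6 against 433.5 and 413.4), the astrocyte list (1528 and 1539 against 1627 and 1611) and the microglial list (46.3 and 58.0 against 60.7 and 64.1) were higher in each rmTBI library. Single genes were mixed, with a gene median below 0 in 1 of 8 interneuron, 4 of 8 progenitor, 6 of 10 astrocyte and 2 of 9 microglial genes with a peak. The vascular list (121.4 and 127.5 CPM against 120.8 and 111.8 CPM) was lower, and the immediate early list (336.5 and 517.2 CPM against 461.5 and 684.7 CPM) overlapped between the groups. All these sums are over sham-set peaks alone, a choice that bears on the same contrast, so no direction of a cell type is read from them. The part of any of these lists in the peaks named here was not tested.

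Other marker lists touched few long coding peaks. Tnr, of oligodendrocyte progenitors and the extracellular matrix, had a log2 fold of 0.27, Slc4a4, an astrocytic bicarbonate transporter, -0.39, and Nr4a3, an immediate early transcription factor, 0.63, with 23.2 and 13.4 CPM in sham and 36.2 and 20.4 CPM in rmTBI. None was called. No gene on the interneuron, microglial, vascular or choroid plexus list had a long coding peak.

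Several of the listed pathways were represented. Of 41 synaptic scaffold and active zone genes listed, 40 had a peak and 13 had long coding peaks, 21 in all, among them Pclo, Rims1, Dlgap2, Shank2 and Dlg4. Their log2 folds ranged from -0.29 to 0.46, with a median of 0.12 beside 0.02 over all tested peaks, and no call. Of the 21 peaks, 18 lay above 0 and 3 below, beside 604 and 475 of all 1079 long coding peaks. Peaks of the same gene are not independent. Rims1, an active zone organiser, had 1293 and 664 CPM in sham and 1361 and 704 CPM in rmTBI. The 4 peaks of Pclo gave log2 folds of 0.07, 0.02, 0.15 and 0.17. At Rims1 the 2 libraries of a group differed more than the groups did.

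Ion channel and receptor genes (52 listed, 50 with a peak) had 8 long coding peaks in 7 genes, with log2 folds from -0.77 to 0.43 and a median of 0.21. Ryr3, an intracellular calcium release channel, had 553 and 314 CPM in sham and 319 and 189 CPM in rmTBI, so that sham library 1 and rmTBI library 0 overlapped. Slc8a1, the sodium-calcium exchanger, had 1362 and 670 CPM against 1744 and 879 CPM and also overlapped. Kcnb2, not on the list, had 1021 and 598.5 CPM against 1619 and 942 CPM, and also overlapped. Its log2 fold was 0.66 (SE 0.33, not called in edgeR), with 0.67 within number 0 and 0.65 within number 1. Adhesion and guidance genes (55 listed, 54 with a peak) had 11 long coding peaks in 8 genes, with a median of 0.07, among them Fat3, a giant cadherin (-0.02), Nrxn2, a presynaptic neurexin (0.33), and Tenm4, a teneurin (0.41).

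Chromatin and transcription genes (43 listed, 43 with a peak) had the most, 23 peaks in 17 genes. Their log2 folds ranged from -0.25 to 0.22, 18 above 0 and 5 below (604 and 475 among all 1079), with a median of 0.07. The genes included Chd2, Chd3, Chd4, Chd6, Chd7 and Chd8, helicases of the CHD family of chromatin remodellers. Bptf gave log2 folds of 0.03, 0.01, 0.17 and -0.01 at its 4 peaks, and Myt1l, a neuronal zinc finger repressor, 0.21 at its leading peak with 702 and 883.5 CPM in sham and 852 and 984.5 CPM in rmTBI. Cytoskeleton and motor genes (45 listed, 45 with a peak) had 22 peaks in 16 genes, of which 12 lay above 0 and 10 below, and their median was 0.04.

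The m6A machinery itself (25 listed, 16 with a peak) had 5 long coding peaks in 3 genes. Wtap, the adaptor subunit of the methyltransferase complex, had 39.7 and 28.4 CPM in sham and 36.8 and 26.9 CPM in rmTBI. Zc3h13, which anchors that complex in the nucleus, had 3 peaks with log2 folds of 0.08, 0.27 and 0.12, and Ythdc1, the nuclear reader of the mark, had 0.01. Values overlapped between the groups at Wtap, Ythdc1 and 2 of the 3 Zc3h13 peaks. Of the ubiquitin and kinase signalling lists, 3 peaks and 4 peaks were long, with medians of 0.02 and -0.55, the second including both Plcb4 peaks.

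Over these 8 pathway lists edgeR called no long coding peak in the model of group alone. At an unadjusted p under 0.05 there were 2 lower for Plcb4, 1 lower for Map4, a microtubule-associated protein, and 1 higher for Myo16, and DESeq2 called 1, of Plcb4. Leaving out 1 library moved the median log2 fold of all 1079 peaks to between -0.21 and 0.19. Each omission unbalances the library numbers between the groups, so these medians cannot decide a direction of the lists. Within numbers 0 and 1 the median was 0.13 and 0.11 for the synaptic list and 0.19 and 0.18 for the channel list. It was -0.55 and -0.55 for the kinase list and 0.08 and -0.07 for the ubiquitin list. The lists were not tested as sets, and no direction is given for them.

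The deposited table carries its own log2 fold, p-value and adjusted p-value per peak, from a test that is not named. By the authors' deposited table, p was under 0.05 for 5 long coding peaks, and the smallest adjusted p among the 1079 was 0.667. The log2 folds of these 5 in the authors' deposited table were 0.05 for Ntng1, -0.38 for Nexn, 0.26 for Tnnt1, 0.40 for Nr2f2 and 0.09 for Tcf7l2. They follow the change in the ratio of library 1 to library 0 and not the change in level, so these values bear on another quantity than the calls given above, and 3 of the 4 called peaks have the opposite sign in the authors' deposited table. None was on the authors' deposited list of 277 higher peaks or on that of 146 lower peaks.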

How the data were processed

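Libraries of mouse cortex (2 sham, 2 rmTBI), for which the labels give the anti-m6A antibody, were compared over peaks. Whether numbers 0 and 1 mark different kinds of library is not settled by the labels. Per the file headers, peaks were called per condition, and the authors deposited whole-number read counts per peak and library, not normalized. The authors also deposited a log2 fold change with p-values per peak; set against the counts, that value follows the change in the ratio of library 1 to library 0, so it is kept apart from the test here. STAR, DESeq2 and GRCm39 appear in the submitters' processing notes without roles; which tools called peaks and counted reads, and whether by strand, is not stated in the sources used here. Coordinates match RefSeq gene spans of GRCm38.p6 and are given so.

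Counts of all peaks were tested in edgeR 4.0.16 (R 4.3.3) after filterByExpr and TMM scaling, by the quasi-likelihood F-test on group alone (2 residual degrees of freedom) and Benjamini-Hochberg adjustment over 33415 peaks; an adjusted p under 0.05 was a call. The SE is the log2 fold divided by the square root of F. CPM are TMM-scaled. Rows that overlap hold some of the same reads, and genes that overlap or have an antisense partner are uncertain. The fit was tested on simulated data. DESeq2 1.42.0, other scalings and filters, the library number as a block, each library left out, and other spans, overlaps and 1 peak per gene were alternatives.

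Genes were named by rule: called peaks, the 6 lowest and highest log2 folds of the same sign in both numbers with an unadjusted p under 0.05, the 6 longest and 6 highest, those with most peaks, those at the threshold and leading members of 19 gene lists. Plcb4, Dach1, the genes printed with sequences and those of inner or barely overlapping peaks were chosen after their values were seen. The peaks and lists were chosen with earlier results of these data known. Peak sequences were not used here, and 1 gene that the rule names is not reported here.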

Additional observations from a re-analysis of the deposited data

How the results depend on the processing

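Of 9 alternatives for 30 named peaks (270 values), 219 kept their direction and side of the threshold, 29 newly passed it, 7 no longer passed and 15 turned sign. The count of called long coding peaks was 4 in edgeR, beside 29 over all peaks. It became 1 with library-size scaling (2 over all peaks), 8 in DESeq2 (138 over all peaks) and 0 with at least 10 counts in every library (0 over all peaks). With the library number as replicate block it was 269 (108 lower, 161 higher), of 3553 called over all peaks. Among the 567 peaks spanning over 10000 bases it was 1. It stayed at 4 with no filter, 50% overlap, 1 peak per gene, and, in an alternative chosen after seeing the data, without peaks opposite to RefSeq or holding a peak of another gene. Calls with 1 library left out are not counted here, since the remaining library of a group is then assumed to vary like the other group. The 4 called peaks were again called with no filter, in DESeq2 and with the block. With 1 library left out their log2 folds lay between -3.79 and -2.01. The labels give the library numbers without a meaning. Same-numbered libraries deviated together (correlation 0.48), and the ratio of library 1 to library 0 fell with span in both groups. With 2 pairs this does not establish what the numbers mark. The median log2 fold ran from -0.21 to 0.19 when 1 library was left out, above 0 without either sham library 0 (0.18) or rmTBI library 1 (0.19) and below 0 otherwise (-0.13 and -0.21). All 15 sign changes came from leaving out 1 library: over the 4 omissions the log2 fold ran from -0.22 to 0.96 for Slc8a1, -0.49 to 0.63 for Rims1, -0.36 to 0.32 for Fat3, -0.30 to 0.24 for Kif5c, -0.55 to 0.11 for Herc1, -0.40 to 0.34 for Herc2, -0.35 to 0.16 for Wtap and -0.10 to 0.65 for Tnr. Each omission leaves the library numbers unbalanced between the groups. Within numbers 0 and 1 the log2 fold was 0.36 and 0.39 for Slc8a1, 0.07 and 0.08 for Rims1, and 0.25 and 0.30 for Tnr. It was -0.04 and 0.003 for Fat3, 0.02 and -0.04 for Kif5c, and -0.35 and -0.11 for Herc1. For Herc2 it was 0.08 and -0.07, and for Wtap -0.11 and -0.07. The cause of the sign changes was not tested. With the block, 20 of the 30 named peaks newly passed. With 2 libraries a group, the median SE of 0.27 for long peaks up to 10000 bases and 0.33 for those over 50000 limits what can be called.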
